A study of Mus musculus with 12 samples.

Results

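RNA from CCR2low and CCR2hi cells of wild-type mouse hearts was compared in 6 sequencing libraries, 3 from each gate, which are the WT libraries of a series of 12. The libraries were taken by their titles: every library titled WT with CCR2low or CCR2hi entered, and every expressed gene was tested in the direction CCR2low minus CCR2hi. The mice were wild type on the C57BL/6N background and labelled male. They had undergone ligation of the left anterior descending coronary artery, which produces a myocardial infarction, and the sorted cells are labelled as heart macrophages. Both gates carry that infarction, since no uninjured heart is among these libraries. The other 6 libraries are titled Bhlhe41 dTomato-Cre+/-, a heterozygous genotype that the deposited data also name KD. They are called Bhlhe41Cre below and serve only where named. Other label fields of these 6 libraries look shifted, so their strain, sex and treatment are not given here. The labels used here do not give the time after ligation, the age of the mice or whether a replicate number stands for 1 animal, so the p-values measure the spread between these libraries.

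CCR2 is the receptor for the chemokine CCL2 and draws monocytes from blood into injured tissue. In the heart, macrophages low in CCR2 include cells of embryonic origin that renew locally, clear dead cells and support repair, while macrophages high in CCR2 derive from monocytes and are known for inflammatory cytokine output. After infarction, fibroblasts next to these macrophages become activated and lay down the collagen of the scar.

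Total counts ran from 19.77 to 20.83 M in CCR2low and from 18.64 to 19.79 M in CCR2hi, where 1 M is 1e+06 counts. Values per library are CPM, counts per 1e+06 counts scaled by TMM (a factor that aligns the bulk of genes between libraries), in the order of replicates 1, 2 and 3. CPM is not divided by transcript length, so it compares libraries and not genes. The value after ± in a log2 fold change is a standard error derived from the test statistic, not an SD. Across genes, which are not independent replicates, log2 CPM correlated at r = 0.973 to 0.988 within a gate and at 0.817 to 0.861 between gates.

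The CCR2hi libraries held far more RNA of genes that mark fibroblasts than CCR2low libraries did, and far less RNA of genes that mark macrophages. The 17 genes of a macrophage identity list, such as Csf1r, Adgre1 and Cd68, took 2.62%, 2.84% and 2.67% of all counts of the CCR2low libraries and 0.214%, 0.370% and 0.462% of those of CCR2hi. The 16 genes of a fibroblast list, such as Pdgfra, Dcn and the collagen genes Col1a1 and Col3a1, took 0.950%, 0.902% and 0.599% in CCR2low and 7.84%, 7.77% and 8.61% in CCR2hi. Neither pair of ranges overlapped, and the gates lay on opposite sides for both lists. Endothelial genes took 0.128% ± 0.0267 (SD, n = 3) against 0.398% ± 0.0901 (SD, n = 3), and mural genes (pericytes and smooth muscle) took 0.0609% ± 0.00252 (SD, n = 3) against 0.210% ± 0.0118 (SD, n = 3). Genes of cardiomyocytes took 0.0405% ± 0.00228 (SD, n = 3) against 0.0531% ± 0.000529 (SD, n = 3), and those of red cells took 0.0318% ± 0.0174 (SD, n = 3) against 0.0269% ± 0.0232 (SD, n = 3). The 14 neutrophil genes took 0.0233% ± 0.00426 (SD, n = 3) against 0.0115% ± 0.00470 (SD, n = 3), and the T, NK and B cell genes took 0.0144% ± 0.00391 (SD, n = 3) against 0.0117% ± 0.0104 (SD, n = 3). Of 13 T, NK and B cell genes tested, 6 were higher in CCR2low and none lower, with a median of 1.54, and Cd79b, a chain of the B cell receptor, stood at 10.6, 7.92 and 8.10 CPM in CCR2low and 1.31, 2.51 and 3.29 CPM in CCR2hi (log2 fold change 1.91 ± 0.32, adjusted p = 0.000669). In all values below, more RNA per cell and more cells of a type cannot be told apart, and the part of the fibroblast RNA in each result was not tested.

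**Figure D1:**
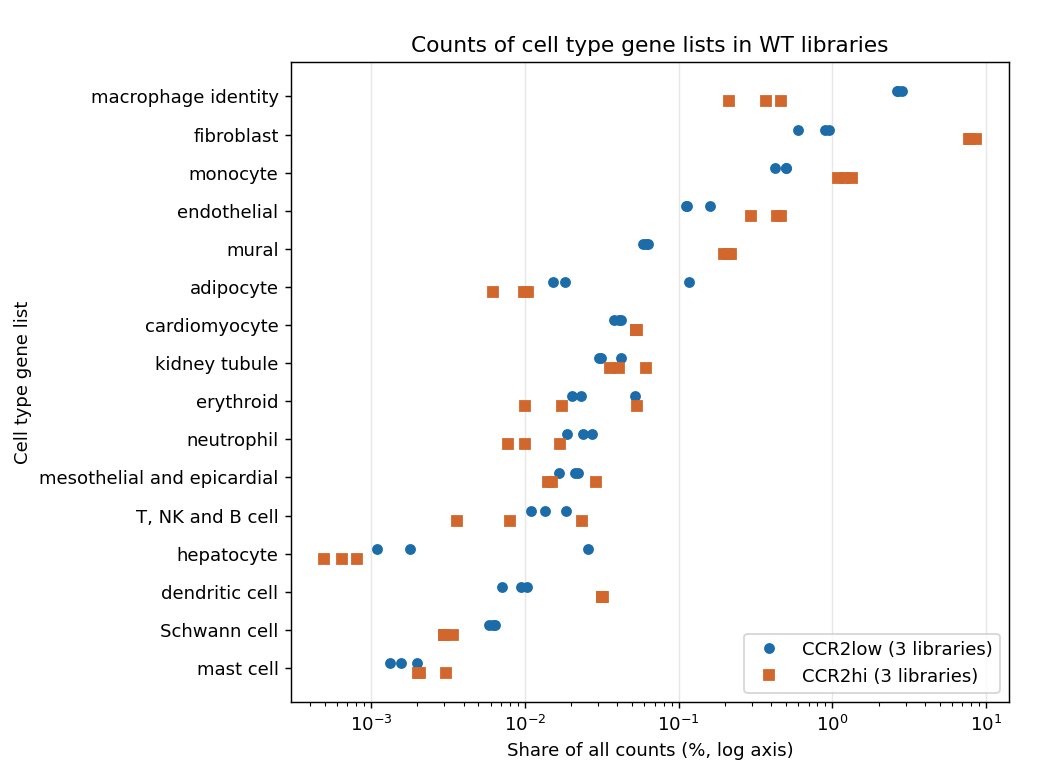
Share of all counts taken by the summed genes of each cell type list, in percent on a log axis, with 1 point per library and CCR2low and CCR2hi in different colours. The macrophage list lies at 2.62%, 2.84% and 2.67% in CCR2low and 0.214%, 0.370% and 0.462% in CCR2hi, and the fibroblast list runs the other way.

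Of 14310 genes tested, 8443 differed between the gates at an adjusted p under 0.05, which is 59.0% of genes. In CCR2low 4107 genes (28.7%) were higher and 4336 (30.3%) were lower. These shares are the background for the list counts below. More than 2-fold changes numbered 2065 higher and 3111 lower, and more than 8-fold changes 327 and 540. The median gene sat at 0.00051 on the log2 scale. For 4831 genes (33.8%) every CCR2low library lay above every CCR2hi library, and for 4771 (33.3%) every one lay below. With limma-trend on TPM values, where the median gene lay at -0.30 relative to the count test, 2375 genes were higher and 5089 lower, so the share of higher genes among those called fell from 48.6% to 31.8%. Lower genes had longer transcripts, with a median of 3988 bases against 2970 for higher genes and 3315 for all genes tested.

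The largest gains in counts in CCR2low were of secretory and lysosomal macrophage genes. Apoe, the apolipoprotein that carries cholesterol out of macrophages, stood at 34741, 31421 and 32012 CPM in CCR2low and 1745, 3969.7 and 4438 CPM in CCR2hi. Its gates were separate, at log2 fold change 3.27 ± 0.34, adjusted p = 3.56e-05. Gpnmb, a membrane glycoprotein of lipid-loaded macrophages, stood at 4234, 3834 and 5561 CPM in CCR2low and 24.0, 50.4 and 48.1 CPM in CCR2hi and had the largest fold change of the 12 genes with the largest gain in CPM (log2 fold change 6.80 ± 0.36, adjusted p = 1.47e-06). Lyz2, the lysozyme of myeloid cells, stood at 9111, 10943 and 8461 CPM in CCR2low and 538, 1223 and 1659 CPM in CCR2hi (log2 fold change 3.06 ± 0.38, adjusted p = 0.000168), and Mpeg1, a pore-forming protein of macrophages, at 3283, 3647 and 4112 CPM in CCR2low and 201, 412 and 372 CPM in CCR2hi (log2 fold change 3.49 ± 0.28, adjusted p = 6.81e-06). In each of these 4 genes the lowest CCR2low library exceeded the highest CCR2hi library. The largest losses were of collagen and matrix genes and of the mitochondrial transcripts mt-Co1 and mt-Cytb.

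The sort gene itself separated the gates by little. Ccr2 stood at 37.1, 37.6 and 17.6 CPM in CCR2low and 41.3, 69.1 and 86.1 CPM in CCR2hi. The CCR2low libraries lay at the bottom, and the difference was log2 fold change -1.09 ± 0.34, adjusted p = 0.0247. Without CCR2hi replicate 2 or 3 the call was lost (adjusted p = 0.0605 and adjusted p = 0.0767), as it was after a GC and length correction (adjusted p = 0.432). Since the macrophage genes differed far more than Ccr2, a second scale divides each gene by the summed counts of the 17 macrophage identity genes. On this macrophage scale the median gene moved by -3.18, so 98 genes (0.685%) were higher and 13536 (94.6%) lower in CCR2low, and only higher genes stand against that background. There Ccr2 stood at 0.110% of the macrophage sum in CCR2low and 1.94% in CCR2hi (log2 ratio -4.14, adjusted p = 2.97e-18). The scale divides by RNA that CCR2hi libraries hardly held, and fibroblasts count in the numerator. Of 12 kidney tubule genes tested 7 were higher on it, and of 8 adipocyte genes 2. A higher ratio therefore does not mark RNA as that of macrophages.

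Of 14 chemokine receptor genes tested, 7 were higher and 4 lower in CCR2low, with a median of 1.13 against 0.00051 for all genes. Cxcr4, the receptor for CXCL12, stood at 565, 544 and 593 CPM in CCR2low and 33.8, 72.1 and 79.4 CPM in CCR2hi (log2 fold change 3.20 ± 0.30, adjusted p = 2.84e-05). Cx3cr1, the fractalkine receptor of resident macrophages and of patrolling monocytes, stood at 167, 141 and 85.5 CPM in CCR2low and 15.7, 44.2 and 44.5 CPM in CCR2hi (log2 fold change 1.92 ± 0.42, adjusted p = 0.00563). Both were higher in every CCR2low library. The scavenging receptors Ackr3 and Ackr4, which remove chemokines without signalling, were lower, at -1.86 and -4.31.

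The ligands split in a similar way. Of 16 CC chemokine genes, 9 were higher and 2 lower, with a median of 1.10. Ccl8 stood at 167, 224 and 124 CPM in CCR2low and 4.12, 12.1 and 13.7 CPM in CCR2hi (log2 fold change 4.11 ± 0.46, adjusted p = 0.000167) and was also higher on the macrophage scale (log2 ratio 1.13, adjusted p = 0.00609), a call that ended without CCR2low replicate 2 (adjusted p = 0.074). Ccl6 (3.47), Ccl12 (2.97), Ccl3 (2.56), Ccl4 (2.16) and Ccl7 (1.35) were higher. Ccl2, the ligand of CCR2, stood at 292, 279.7 and 216 CPM in CCR2low and 244, 100.1 and 149 CPM in CCR2hi. Its gates were not called apart (log2 fold change 0.68 ± 0.29, adjusted p = 0.076). Among 13 CXC and other chemokine genes, 5 were higher and 4 lower, with a median of 0.60, and 3 were higher without CCR2low replicate 2. Pf4, a chemokine that macrophages share with platelets, rose by 3.93, and Cxcl2 and Cxcl16 by 2.18 and 2.22. Cxcl12, the stromal ligand of CXCR4, stood at 132, 134 and 128 CPM in CCR2low and 502, 681 and 622 CPM in CCR2hi (log2 fold change -2.20 ± 0.15, adjusted p = 2.58e-06). The genes of this ligand and its receptor were thus higher in opposite gates, though each was counted in both. Cx3cl1, the ligand of CX3CR1, was lower too (-2.68).

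Genes of monocytes went both ways. Of 16, 6 were higher and 4 lower in CCR2low, with a median of 0.46. Of all genes 28.7% were higher and 30.3% lower, so these counts alone do not set the list apart. Chil3, a chitinase-like protein of myeloid cells, stood at 104, 192 and 134 CPM in CCR2low and 41.8, 27.9 and 21.3 CPM in CCR2hi and was higher (log2 fold change 2.24 ± 0.30, adjusted p = 0.000236). Beside Ccr2 the lower genes were Vcan, Ace and Fn1, which stroma or vessels also express (-4.14, -2.95 and -1.58). Of 11 dendritic cell genes tested, 1 was higher and 6 lower, with Zbtb46, a factor of conventional dendritic cells and endothelium, at 6.06, 5.31 and 6.01 CPM in CCR2low and 16.5, 22.8 and 19.98 CPM in CCR2hi (log2 fold change -1.77 ± 0.18, adjusted p = 2.7e-05) and the lectin gene Cd209a at 1.39, 0.934 and 1.53 CPM in CCR2low and 5.42, 5.71 and 7.23 CPM in CCR2hi (log2 fold change -2.25 ± 0.27, adjusted p = 8.94e-05). These levels lay above those of CCR2low in all 3 CCR2hi libraries.

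Lysosomal genes were higher in CCR2low almost without exception. Of 35 genes for lysosomal membrane proteins and hydrolases, 32 were higher and none was lower, with a median of 1.87 against 0.00051 for all genes. The 3 not called were Ids, Scarb2 and Gaa. Of 18 subunit and accessory genes of the vacuolar proton pump, which acidifies the lysosome, 17 were higher and none lower, with a median of 1.63, and the remaining one was Atp6v0a2. Of 17 cathepsin and cystatin genes, 10 were higher and 3 lower. Ctsd, an aspartic protease of the lysosome, stood at 17282, 14691 and 14576 CPM in CCR2low and 1034, 1519.9 and 1343 CPM in CCR2hi. The CCR2low libraries lay close together and far above (log2 fold change 3.58 ± 0.21, adjusted p = 1.63e-06). Psap, the precursor of the saposins that activate lipid hydrolases, stood at 16861, 14851 and 17418 CPM in CCR2low and 1388, 2027 and 2168 CPM in CCR2hi (log2 fold change 3.14 ± 0.22, adjusted p = 3.17e-06). Lamp1, the main glycoprotein of the lysosomal membrane, stood at 2582, 2583 and 2587 CPM in CCR2low and 615, 699 and 719.5 CPM in CCR2hi (log2 fold change 1.93 ± 0.14, adjusted p = 3.77e-06). Atp6v0d2, a pump subunit of macrophages and osteoclasts, stood at 39.3, 36.4 and 62.7 CPM in CCR2low and 3.44, 1.71 and 1.52 CPM in CCR2hi (log2 fold change 4.37 ± 0.35, adjusted p = 1.09e-05). No library of either gate crossed into the other for these 4 genes. The cation channel gene Mcoln3 had the largest change of the lysosomal list (5.85), with 718 against 12 counts in all 3 CCR2low against all 3 CCR2hi libraries, and was at 5.25 without CCR2hi replicate 1. Against this, the collagen-cleaving cathepsin Ctsk was lower (-1.43), as were Ctsf (-0.90) and the cystatin Cst6 (-4.13). On the macrophage scale, where 94.6% of all genes were lower, 26 lysosomal and 16 pump genes were lower. In each of these 2 lists 1 gene was higher there, Mcoln3 (log2 ratio 2.91, adjusted p = 9.39e-07) and Atp6v0d2 (log2 ratio 1.06, adjusted p = 0.0114). Atp6v0d2 lost that call without CCR2low replicate 3 and without CCR2hi replicate 2 or 3 (adjusted p = 0.147, adjusted p = 0.14 and adjusted p = 0.146), and its log2 ratio was 2.07 without CCR2hi replicate 1.

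The E-box TCACGTG, of the kind bound by TFEB, TFE3 and MITF, is known from lysosomal gene promoters. Promoter sequences came from RefSeq on GRCm38.p6, and 10717 of 14293 gene symbols tested had one. TCACGTG was searched on both strands in the 250 bases before the first start listed for each gene. It was present in 516 promoters (4.8%). Among the lysosomal genes 7 of 29 promoters held it (24.1%), and among the proton pump genes 2 of 12 (16.7%). Among all higher genes the share was 6.1% and among all lower genes 3.8%. Other elements searched alike were also more frequent in the 29 lysosomal promoters than in all promoters. The TEAD element CATTCC was in 7 of them (24.1%, against 10.7% of all), the PU.1 element GAGGAAG in 6 (20.7% against 11.2%) and the AP-1 element TGANTCA in 3 (10.3% against 4.4%). The promoters of Lamp1 (chr8:13158911-13159160, plus strand), of Sgsh, which encodes a heparan sulphate hydrolase (chr11:119355511-119355760, minus strand), and of Glb1, which encodes beta-galactosidase (chr9:114400828-114401077, plus strand), are shown to place the element relative to the start. They are written 5′ to 3′ and end 1 base before the start, with the element or its reverse complement in capitals. Lamp1 holds 4 matches and the others 1 each.
Lamp1: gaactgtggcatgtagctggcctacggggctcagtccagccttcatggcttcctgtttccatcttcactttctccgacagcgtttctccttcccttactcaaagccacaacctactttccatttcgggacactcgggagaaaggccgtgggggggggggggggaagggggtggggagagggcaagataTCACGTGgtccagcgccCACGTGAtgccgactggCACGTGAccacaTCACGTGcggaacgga
Sgsh: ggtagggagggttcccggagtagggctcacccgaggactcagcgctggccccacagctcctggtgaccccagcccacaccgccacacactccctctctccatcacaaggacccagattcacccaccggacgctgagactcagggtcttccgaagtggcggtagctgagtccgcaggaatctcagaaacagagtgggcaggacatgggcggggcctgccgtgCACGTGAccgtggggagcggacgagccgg
Glb1: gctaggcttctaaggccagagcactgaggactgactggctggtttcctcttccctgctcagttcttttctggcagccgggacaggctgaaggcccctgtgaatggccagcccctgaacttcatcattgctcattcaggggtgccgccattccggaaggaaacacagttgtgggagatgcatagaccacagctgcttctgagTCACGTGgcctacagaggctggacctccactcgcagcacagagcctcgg
All 3 genes were higher in CCR2low, Lamp1 as above, Sgsh by 1.78 and Glb1 by 1.23. Gaa also held the element and was not called apart, and among cathepsin genes Ctsd held it. Nothing about the factors' binding was measured here.

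Genes of the phagocyte surface followed the lysosome. All 16 Fc receptor, TREM and adaptor genes were higher in CCR2low, with a median of 2.72. Fcgr3, a low-affinity receptor for IgG, stood at 789, 997 and 946 CPM in CCR2low and 45.7, 110.2 and 107 CPM in CCR2hi (log2 fold change 3.38 ± 0.33, adjusted p = 3.63e-05). Trem2, a lipid-sensing receptor that signals through TYROBP, stood at 887, 694 and 722 CPM in CCR2low and 22.3, 55.9 and 55.5 CPM in CCR2hi and had the largest change of the list (log2 fold change 4.11 ± 0.35, adjusted p = 1.96e-05). Trem2 was higher on the macrophage scale too (log2 ratio 1.11, adjusted p = 0.00957), which did not hold without CCR2low replicate 1 (adjusted p = 0.0709). The kinases Syk, Lyn and Fgr, which act below these receptors, were higher by 2.14, 2.08 and 2.402. Fcgrt, the neonatal Fc receptor, changed least (0.51). It was at 0.1647 and not called on TPM values with a pseudocount of 1 (adjusted p = 0.301), and its call ended without CCR2low replicate 2 (adjusted p = 0.0592).

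The purine-rich element GAGGAAG, of the kind bound by the myeloid factor PU.1 (gene Spi1), was searched the same way. It was in 1199 promoters (11.2%), in 5 of 11 of the Fc receptor list (45.5%) and in 4 of 12 of the macrophage identity list (33.3%). It was also in 2 of 11 promoters of the fibroblast list (18.2%) and 3 of 18 of the collagen list (16.7%), whose genes were lower, and in 1 of 12 of the proton pump list (8.3%). Among all higher genes with a promoter 416 of 3197 held it, and among all lower genes 343 of 3170 (10.8%). The Fc receptor and macrophage identity lists share members, and Fcgr1 counts in both. The AP-1 element TGANTCA was in 2 of 12 macrophage identity promoters (16.7%) and 1 of 11 Fc receptor promoters (9.1%), against 4.4% of all. The TEAD element was in 0 of 12 and 1 of 11, and TCACGTG in 0 of either list. Spi1 stood at 416, 397 and 339 CPM in CCR2low and 33.4, 61.0 and 71.6 CPM in CCR2hi (log2 fold change 2.80 ± 0.27, adjusted p = 2.71e-05), with no overlap. The promoters of Fcgr3 (chr1:171059404-171059653, minus strand) and Trem2 (chr17:48346151-48346400, plus strand) are shown with the element or its reverse complement in capitals.
Fcgr3: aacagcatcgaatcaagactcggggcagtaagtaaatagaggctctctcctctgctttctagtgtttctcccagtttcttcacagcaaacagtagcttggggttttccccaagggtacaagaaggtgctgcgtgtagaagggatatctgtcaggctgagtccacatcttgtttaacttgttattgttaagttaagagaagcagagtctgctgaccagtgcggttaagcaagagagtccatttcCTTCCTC
Trem2: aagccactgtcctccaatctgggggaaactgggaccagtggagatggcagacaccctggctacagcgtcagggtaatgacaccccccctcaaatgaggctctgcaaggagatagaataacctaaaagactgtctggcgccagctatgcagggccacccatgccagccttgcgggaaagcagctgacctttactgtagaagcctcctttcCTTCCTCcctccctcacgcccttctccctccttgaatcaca
These letters are a description of the sequence, and binding was not measured.

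Of 24 scavenger and clearance receptor genes, 14 were higher and 7 lower in CCR2low. Cd163, the haemoglobin scavenger receptor of resident macrophages, stood at 70.5, 126 and 251 CPM in CCR2low and 1.07, 7.95 and 5.56 CPM in CCR2hi (log2 fold change 4.95 ± 0.81, adjusted p = 0.00225). Stab1, which takes up modified lipoprotein, stood at 1647, 1939 and 1443 CPM in CCR2low and 103, 269 and 215 CPM in CCR2hi (log2 fold change 3.10 ± 0.34, adjusted p = 7.08e-05). Msr1 and Mertk, which bind modified lipoprotein and dying cells, were higher by 3.66 and 2.74. The lower genes included Mrc2, a collagen uptake receptor (-3.30), Tyro3 (-2.80) and Axl (-1.19). Cd163 was higher on the macrophage scale as well (log2 ratio 2.04, adjusted p = 1.46e-06), at 1.39 without CCR2low replicate 3, and not without CCR2hi replicate 1 (adjusted p = 0.127). On the CPM scale it stood at 4.35 without CCR2low replicate 3.

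Among 14 genes typical of macrophages of serous cavities, 8 were higher and 4 lower. Marco, a receptor for particles and bacteria, stood at 86.8, 199 and 449 CPM in CCR2low and 0, 0.373 and 0.253 CPM in CCR2hi (log2 fold change 10.19 ± 1.03, adjusted p = 0.000244). Every CCR2low library lay above, and replicate 3 was highest, as it was for the fat cell genes Adipoq and Cfd below. Without it the value was 9.41, and without CCR2hi replicate 1 or 2 it was 9.59 or 10.88. Cd5l, a secreted scavenger protein of tissue macrophages, stood at 160.0, 238 and 366 CPM in CCR2low and 0.629, 2.08 and 1.87 CPM in CCR2hi (log2 fold change 7.39 ± 0.50, adjusted p = 8.27e-06). Vsig4, a complement receptor of resident macrophages, stood at 27.3, 32.1 and 68.6 CPM in CCR2low and 0.0484, 0.640 and 0.759 CPM in CCR2hi (log2 fold change 6.47 ± 0.63, adjusted p = 7.1e-05). Marco, Cd5l and Vsig4 were higher on the macrophage scale at 7.24, 4.40 and 3.55. Marco there was 6.41 without CCR2low replicate 3 and 7.93 without CCR2hi replicate 2. Gata6, the factor that defines cavity macrophages and is also expressed by heart stroma, ran the other way, at 15.3, 13.8 and 14.8 CPM in CCR2low and 69.2, 63.7 and 79.6 CPM in CCR2hi (log2 fold change -2.28 ± 0.14, adjusted p = 1.74e-06).

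Of 24 complement genes, 13 were higher and 7 lower. The higher ones include Cfd (8.42), a gene also of the adipocyte list, with most of its counts in CCR2low replicate 3. The 3 chains of C1q, which opsonise dying cells, were all higher (C1qa 3.21, C1qb 3.14, C1qc 3.36), and so were the anaphylatoxin receptors C3ar1 (3.72) and C5ar1 (2.98). C1qa stood at 3597, 3475 and 2844 CPM in CCR2low and 162, 441 and 471 CPM in CCR2hi, with every CCR2low library higher. The lower genes included Serping1, the C1 inhibitor, at 158, 157 and 131 CPM in CCR2low and 957, 961 and 1022 CPM in CCR2hi (log2 fold change -2.72 ± 0.14, adjusted p = 1.25e-06). C1s1 and C3 were lower, at -1.83 and -0.91.

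Innate sensors were mostly higher, with 16 of 22 genes higher and Tlr3 the single lower one (-0.93). The receptor gene Tlr13, a sensor of bacterial ribosomal RNA, rose by 3.20, Tlr7 by 2.31, Tlr2 by 2.22 and the inflammasome gene Nlrp3 by 2.15. Inhibitory receptors and checkpoint ligands gave 14 higher of 16, and the lower one was Cd200 (-1.52). Sirpa, which receives the CD47 signal against engulfment, stood at 1290.5, 1232 and 1187 CPM in CCR2low and 97.8, 153 and 161 CPM in CCR2hi (log2 fold change 3.17 ± 0.20, adjusted p = 2.15e-06). Of 18 Siglec and C-type lectin genes tested, 11 were higher, with Siglec1, a sialic acid receptor, at 267, 286 and 349 CPM in CCR2low and 13.2, 28.6 and 33.0 CPM in CCR2hi (log2 fold change 3.59 ± 0.32, adjusted p = 2.48e-05). The lower ones, Clec14a, Clec3b and Clec11a, are known from vessels and stroma (-1.87, -3.04 and -3.56).

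**Figure D2:**
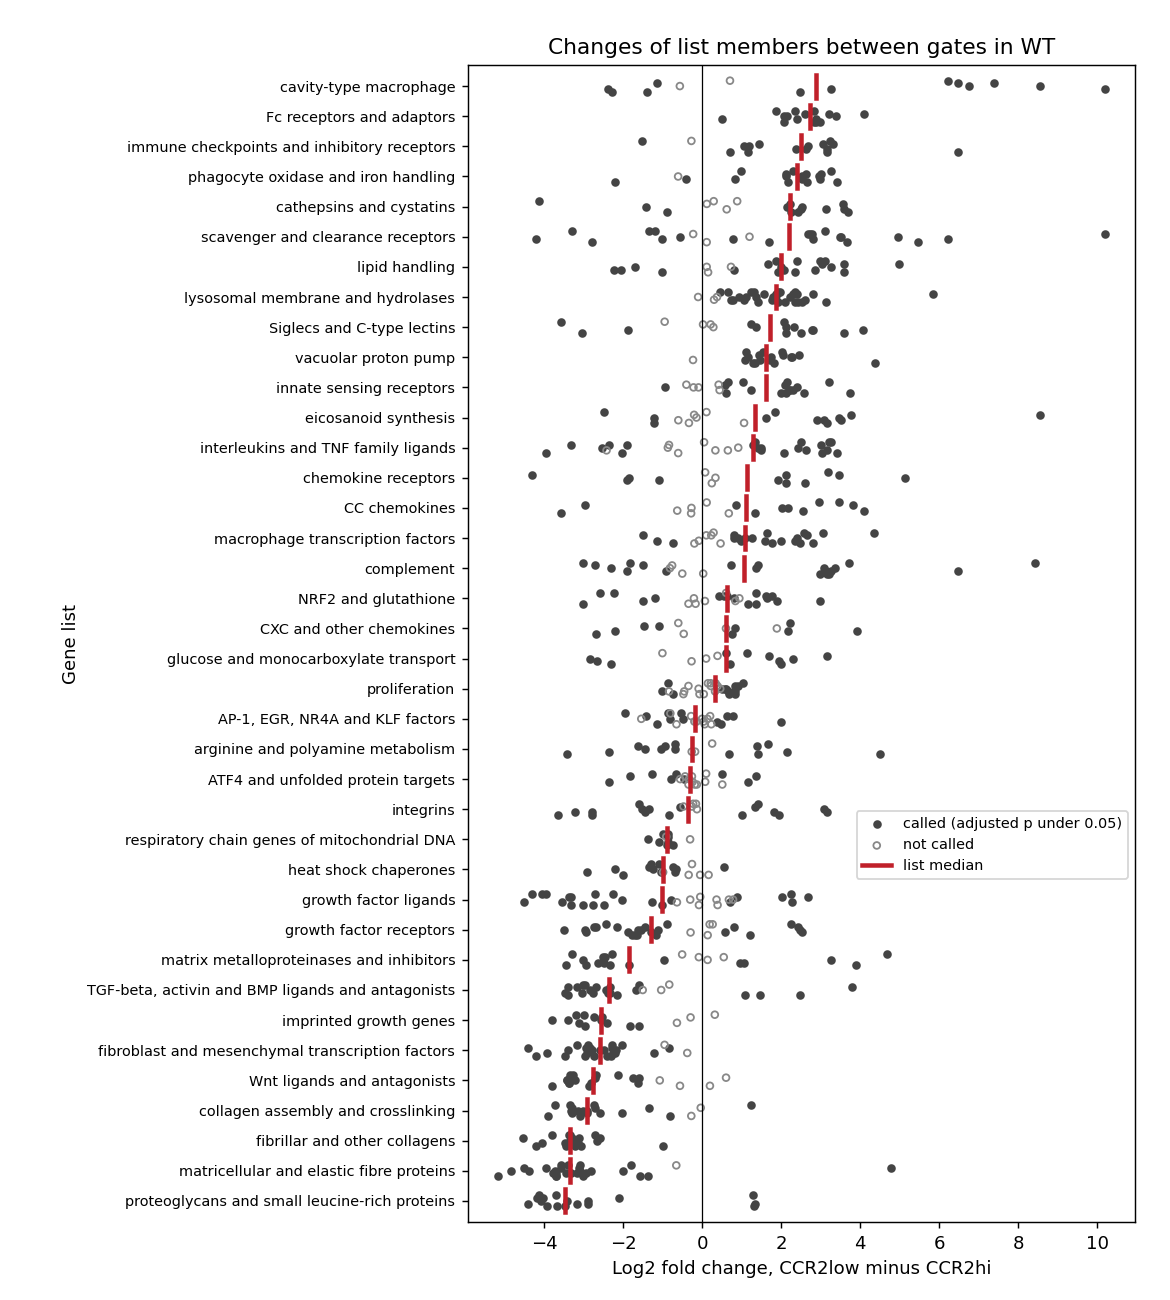
Log2 fold change (CCR2low minus CCR2hi) of each member of the gene lists, with 1 point per gene, filled where called at an adjusted p under 0.05, and a bar at the list median. Lysosomal and Fc receptor lists lie above 0 with medians of 1.87 and 2.72, and collagens below 0 with a median of -3.33.

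Genes of iron, oxidase and lipid handling rose with the macrophage genes. Of 18 genes for the phagocyte oxidase and for iron, 15 were higher and 2 lower, with a median of 2.41. Hmox1, which breaks down haem, stood at 1136, 985 and 871 CPM in CCR2low and 197, 91.0 and 88.4 CPM in CCR2hi (log2 fold change 2.99 ± 0.32, adjusted p = 7.06e-05). Slc40a1, the iron exporter ferroportin, stood at 69.6, 56.5 and 57.6 CPM in CCR2low and 4.89, 8.64 and 5.72 CPM in CCR2hi (log2 fold change 3.26 ± 0.22, adjusted p = 2.78e-06). The ferritin chains Ftl1 and Fth1 rose by 3.02 and 2.52, and ceruloplasmin (Cp) fell by 2.20. Lipid handling had 16 of 23 genes higher and 4 lower, with a median of 1.99. Plin2, which coats lipid droplets, stood at 1164, 1013 and 1364 CPM in CCR2low and 118, 139 and 151 CPM in CCR2hi (log2 fold change 3.12 ± 0.17, adjusted p = 1.41e-06). The cholesterol exporters Abcg1 and Abca1 rose by 2.86 and 1.93. Fabp4, a fatty acid carrier that endothelium also expresses, and the lipase gene Mgll were lower (-1.70 and -2.07).

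Eicosanoid genes gave 9 higher and 3 lower of 18. The leukotriene pathway genes Alox5 (3.17), Alox5ap (3.08) and Ltc4s (3.77) and the thromboxane synthase gene Tbxas1 (3.47) were higher. Alox15, the lipoxygenase that starts pro-resolving mediator synthesis, stood at 26.4, 39.7 and 172 CPM in CCR2low and 0.145, 0.160 and 0.303 CPM in CCR2hi (log2 fold change 8.57 ± 1.15, adjusted p = 0.000933) and at 7.30 without CCR2low replicate 3, its highest library. Ptgis, the prostacyclin synthase of stroma and vessels, was lower (-2.49).

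Of 27 genes for transcription factors of macrophages, 18 were higher and 3 lower, with a median of 1.09. Tfec, a relative of MITF expressed in macrophages, stood at 23.3, 31.7 and 33.6 CPM in CCR2low and 1.31, 2.19 and 0.860 CPM in CCR2hi (log2 fold change 4.35 ± 0.31, adjusted p = 3.76e-06). Tfec alone of the list was higher on the macrophage scale (log2 ratio 1.19, adjusted p = 0.00666), and this was lost without CCR2hi replicate 3 (adjusted p = 0.0758). Maf, which maintains the mature macrophage state, was higher by 3.07. Irf8 and Irf5 rose by 2.35 and 2.39, and Cebpa and Cebpb by 2.48 and 1.60. Bhlhe40 stood at 433, 400.3 and 403 CPM in CCR2low and 872, 585 and 587 CPM in CCR2hi and was lower in CCR2low (log2 fold change -0.73 ± 0.17, adjusted p = 0.00554). Its paralog Bhlhe41, the locus altered in the other mice of the series, stood at 39.8, 31.6 and 34.2 CPM in CCR2low and 44.5, 40.3 and 26.9 CPM in CCR2hi, with overlapping gates (log2 fold change -0.08 ± 0.19, adjusted p = 0.732). Id3 was the third lower gene beside Bhlhe40 and Klf2 (-1.498). Klf2 (-1.13) lost its call without CCR2low replicate 1 and without CCR2hi replicate 2 or 3 (adjusted p = 0.0604, adjusted p = 0.0618 and adjusted p = 0.0567).

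More cytokine genes were higher than lower in CCR2low. Of 29 interleukin and TNF family ligand genes, 15 were higher and 6 lower, with a median of 1.28. Tnf stood at 319, 342 and 264 CPM in CCR2low and 28.7, 27.5 and 40.3 CPM in CCR2hi (log2 fold change 3.26 ± 0.19, adjusted p = 1.53e-06). Il10, an anti-inflammatory cytokine, stood at 185, 221 and 191 CPM in CCR2low and 29.2, 15.5 and 19.98 CPM in CCR2hi (log2 fold change 3.20 ± 0.23, adjusted p = 4.17e-06). Il1b stood at 642, 842 and 700.4 CPM in CCR2low and 223, 231 and 320.2 CPM in CCR2hi (log2 fold change 1.497 ± 0.18, adjusted p = 8.1e-05), and its antagonist Il1rn rose by 2.43. Osm, an inducer of fibroblast and cardiomyocyte responses, rose by 3.00. On the macrophage scale no gene of this list was higher and 20 were lower, where 0.685% of all genes were higher and 94.6% lower. The list median on that scale was -1.94, against -3.18 for all genes. Csf1, the growth factor of macrophages, was lower, at 39.8, 46.9 and 33.4 CPM in CCR2low and 208, 149 and 130.5 CPM in CCR2hi (log2 fold change -2.02 ± 0.20, adjusted p = 2.59e-05), while its receptor gene Csf1r stood at 1923, 1900.3 and 1688 CPM in CCR2low and 176, 411 and 366 CPM in CCR2hi (log2 fold change 2.53 ± 0.29, adjusted p = 9.24e-05). Ligand and receptor were therefore higher in opposite gates, though each was counted in both. Il34, the other ligand of CSF1R, and the alarmin Il33 were lower too (-1.90 and -2.54). Il6 stood at 32.0, 37.1 and 36.2 CPM in CCR2low and 374, 78.5 and 88.1 CPM in CCR2hi, and CCR2hi replicate 1 was highest. Its difference was log2 fold change -2.36 ± 0.65, adjusted p = 0.02, against -1.25 without that library, and the call ended without CCR2low replicate 2 (adjusted p = 0.083).

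Growth factor ligands and receptors were mostly lower in CCR2low. Of 31 ligand genes, 6 were higher and 17 lower, with a median of -1.02. Pdgfc, a ligand of the PDGF receptors, was higher at 46.5, 54.4 and 63.6 CPM in CCR2low and 6.59, 11.1 and 16.5 CPM in CCR2hi (log2 fold change 2.26 ± 0.30, adjusted p = 0.000245). The receptors Pdgfra and Pdgfrb were lower, at -2.97 and -2.68. Areg, an EGF family ligand, and Vegfb rose by 2.01 and 0.88, while Ereg, Fgf2, Angpt1 and Ptn fell by 4.06, 3.36, 4.51 and 4.32. Ctgf, an extracellular modulator of fibrosis, stood at 312, 309 and 251 CPM in CCR2low and 3448, 2944 and 2280.3 CPM in CCR2hi (log2 fold change -3.31 ± 0.20, adjusted p = 1.74e-06). Of 29 receptor genes, 7 were higher and 18 lower, and the higher ones included the colony-stimulating factor receptors Csf2ra (2.49), Csf2rb (2.42) and Csf3r (2.25).

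**Figure D3:**
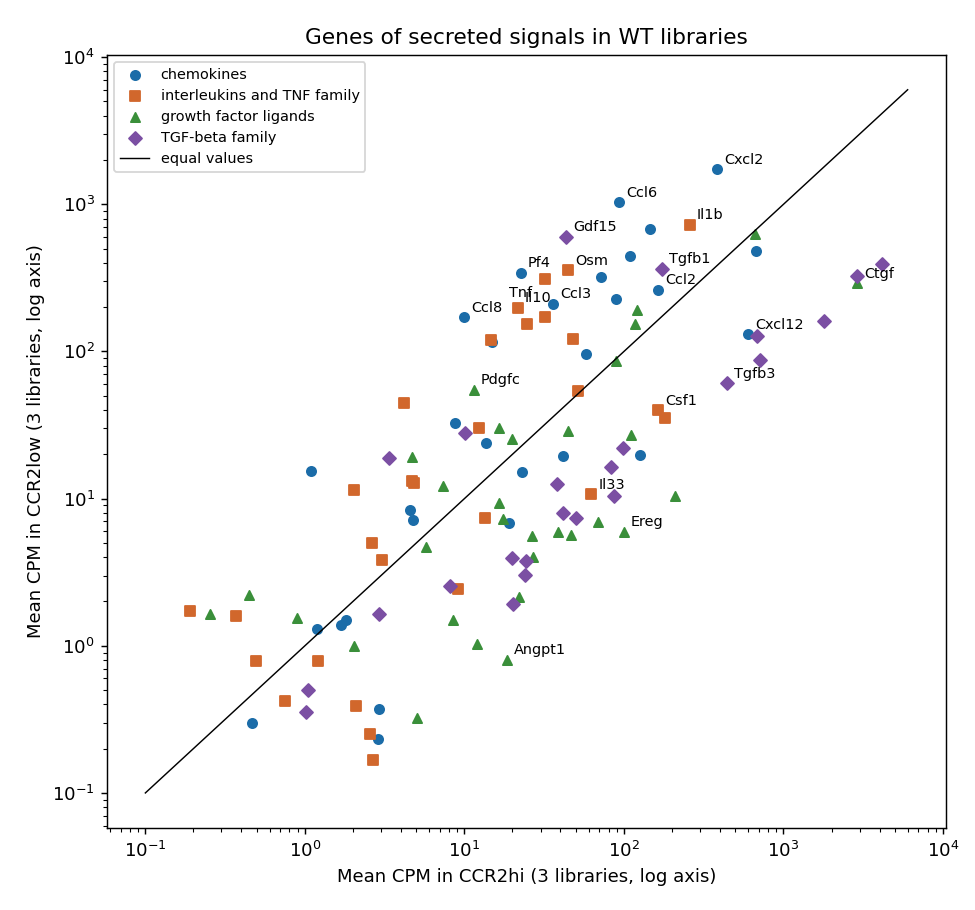
Mean CPM in CCR2hi (horizontal axis) against mean CPM in CCR2low (vertical axis), both on log axes, for the chemokine, cytokine and growth factor genes tested, with 1 point per gene and a line at equal values. Points above the line, such as Tnf, Osm and Gdf15, were higher in CCR2low, and Ctgf, Cxcl12 and Csf1 lie below it.

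Of 24 genes for TGF-beta family ligands, latency proteins and antagonists, 4 were higher and 17 lower, with a median of -2.36. Gdf15, a stress-induced member of the family, was the most raised, at 671, 521 and 609 CPM in CCR2low and 37.2, 34.7 and 57.2 CPM in CCR2hi (log2 fold change 3.80 ± 0.22, adjusted p = 1.66e-06). The isoforms moved in opposite directions. Tgfb1 stood at 408, 350.2 and 338 CPM in CCR2low and 196, 163 and 159 CPM in CCR2hi and was higher (log2 fold change 1.08 ± 0.14, adjusted p = 0.000129), while Tgfb3 stood at 70.3, 60.0 and 52.9 CPM in CCR2low and 354, 493 and 473 CPM in CCR2hi and was lower (log2 fold change -2.85 ± 0.18, adjusted p = 1.93e-06). Tgfb2 was lower as well (-2.38). The latency proteins Ltbp2 and Ltbp4, which tether the ligand to matrix, fell by 3.48 and 3.16. Wnt ligands and antagonists gave none higher and 16 lower of 20, with a median of -2.76. The secreted antagonists Sfrp1, Sfrp2 and Frzb fell by 3.34, 3.79 and 3.41.

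Most genes of the matrix lists were lower in CCR2low, in the libraries with less fibroblast RNA. All 22 genes of the collagen list that were tested were lower, with a median of -3.33 against 0.00051 for all genes. Col1a1, the main collagen of scar, stood at 2508, 2329 and 1296 CPM in CCR2low and 15873, 19695 and 21552 CPM in CCR2hi (log2 fold change -3.22 ± 0.28, adjusted p = 1.09e-05). Col8a1, a short-chain collagen, stood at 83.3, 70.8 and 64.1 CPM in CCR2low and 2352, 1491 and 1230.2 CPM in CCR2hi and had the largest change of the list (log2 fold change -4.54 ± 0.27, adjusted p = 1.88e-06). Col18a1, a collagen of vessel basement membrane, changed least (-0.99) and lost its call once GC and length were corrected for (-0.23, adjusted p = 0.23). Of 20 genes for collagen assembly and crosslinking, 17 were lower, among them Lox (-3.91) and Serpinh1 (-2.92). The exception, the transglutaminase gene Tgm2, which macrophages also express, was higher at 885, 860.4 and 682 CPM in CCR2low and 343, 367 and 321 CPM in CCR2hi (log2 fold change 1.23 ± 0.15, adjusted p = 7.18e-05). Of 17 genes tested in the proteoglycan list, 14 were lower and 3 higher. The higher ones were Srgn, the proteoglycan of leukocyte granules (1.32), Cd44, the hyaluronan receptor (1.28), and Esyt3. Esyt3 does not encode a proteoglycan, so the list counts include a gene of another kind. Lum, Dcn and Vcan fell by 4.08, 3.47 and 4.14.

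Of 28 matricellular and elastic fibre genes, 26 were lower and 1 was higher. The higher one was Spp1, which encodes osteopontin, a matricellular protein that macrophages secrete, at 2949, 2601 and 3128 CPM in CCR2low and 112, 102 and 100.1 CPM in CCR2hi (log2 fold change 4.79 ± 0.16, adjusted p = 6.51e-07). Postn, the periostin of activated fibroblasts, stood at 175, 148 and 115 CPM in CCR2low and 7381, 3745 and 4517 CPM in CCR2hi (log2 fold change -5.16 ± 0.32, adjusted p = 2.12e-06). Eln, which encodes elastin, stood at 579, 451 and 384 CPM in CCR2low and 4755, 6730.0 and 7024 CPM in CCR2hi (log2 fold change -3.71 ± 0.23, adjusted p = 2.06e-06). Every CCR2low library lay below every CCR2hi library for both. Fn1 was lower by less (-1.58). Of 21 genes for metalloproteinases and their inhibitors, 5 were higher and 12 lower. Mmp12, the elastase of macrophages, stood at 256, 195 and 242 CPM in CCR2low and 10.4, 16.9 and 19.5 CPM in CCR2hi (log2 fold change 3.89 ± 0.24, adjusted p = 2.32e-06), while Mmp2, the gelatinase of fibroblasts, stood at 171, 152 and 111 CPM in CCR2low and 1308, 1587 and 1802 CPM in CCR2hi (log2 fold change -3.43 ± 0.21, adjusted p = 1.79e-06). The inhibitors Timp1 and Timp3 fell (log2 fold changes -2.64 and -2.46). Of 22 integrin genes 7 were higher and 10 lower. The higher ones were leukocyte chains such as Itgb2 (3.17) and Itgam (3.08) and the chain Itga6 (1.01), and the lower ones included the collagen receptor chains Itga1 and Itga11 (-2.79 and -3.64).

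Transcription factor genes of fibroblasts and mesenchyme gave none higher and 25 lower of 27, with a median of -2.59. Meox1, a homeobox factor of activated fibroblasts, stood at 27.9, 22.3 and 12.9 CPM in CCR2low and 328, 208 and 169.7 CPM in CCR2hi (log2 fold change -3.48 ± 0.34, adjusted p = 4.76e-05). Tbx20, a heart T-box factor, fell by 3.92, Sox9, a factor of cartilage and fibrosis, by 3.16, and Tcf21, a marker of resting heart fibroblasts, by 2.73. Imprinted growth genes, which stromal cells keep in adult tissue, were lower in 12 of 15 cases and higher in none, with H19 at 66.7, 59.4 and 65.8 CPM in CCR2low and 391, 611 and 501 CPM in CCR2hi (log2 fold change -2.97 ± 0.18, adjusted p = 1.79e-06).

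Lists of stress and state genes held members that went both ways. Of all genes 28.7% were higher and 30.3% lower. Of 24 immediate early genes of the AP-1, EGR, NR4A and KLF families, 5 were higher and 7 lower, with a median of -0.17. The higher count was 3 without CCR2low replicate 2 or CCR2hi replicate 2, and the lower count 4 without CCR2low replicate 1. Egr1 and Jun were lower (-0.82 and -0.86) and Fosl2 was higher (0.79), though not on TPM values with a pseudocount of 1 (adjusted p = 0.112). Of 17 heat shock genes, 11 were lower and 1 was higher, with Hspb1, a small chaperone of stromal and muscle cells, at 59.2, 57.7 and 55.6 CPM in CCR2low and 153, 294 and 355 CPM in CCR2hi (log2 fold change -2.22 ± 0.28, adjusted p = 0.000155). Genes of the NRF2 antioxidant response gave 12 higher and 5 lower of 24, with a median of 0.62. Gpx1, the main glutathione peroxidase, rose by 1.90 and the secreted Gpx3 fell by 1.20. Arg1, an arginine-degrading enzyme of alternatively activated macrophages, stood at 371, 543 and 419 CPM in CCR2low and 9.59, 21.7 and 27.3 CPM in CCR2hi (log2 fold change 4.51 ± 0.38, adjusted p = 2.06e-05), while Nos2, which makes nitric oxide from the same substrate, was lower at 10.3, 9.20 and 5.56 CPM in CCR2low and 13.3, 35.2 and 20.3 CPM in CCR2hi (log2 fold change -1.45 ± 0.37, adjusted p = 0.00861). The 8 lower genes of the 17 for arginine and polyamines included Ddah1 (-3.42), which clears a nitric oxide synthase inhibitor.

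Respiratory chain genes encoded by mitochondrial DNA took 2.88% ± 0.743 (SD, n = 3) of counts in CCR2low against 6.87% ± 1.19 (SD, n = 3) in CCR2hi, and 8 of 10 tested were lower, against 4 without CCR2low replicate 2 and 3 without CCR2hi replicate 3. mt-Co1 stood at 19060.2, 15492 and 11783 CPM in CCR2low and 29515, 47067 and 42422 CPM in CCR2hi (log2 fold change -1.36 ± 0.26, adjusted p = 0.00135). Of 27 proliferation genes, 10 were higher and 3 lower, with a median of 0.33. The higher count was 5 without CCR2low replicate 1 or 2 or CCR2hi replicate 3, and 6 without CCR2hi replicate 2. Pcna and Mcm3, which act in DNA replication, rose by 0.90 and 0.82, and Tyms fell by 0.85. Mki67, a nuclear protein of cycling cells, stood at 18.03, 22.5 and 23.9 CPM in CCR2low and 46.8, 27.2 and 32.5 CPM in CCR2hi (log2 fold change -0.73 ± 0.21, adjusted p = 0.0147), and the call ended without CCR2low replicate 1 (adjusted p = 0.0653). With GC and length corrected for, Mki67 was at -0.0425 (adjusted p = 0.85).

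RNA of genes from outside the heart was present in the CCR2low libraries. Of 12 kidney tubule genes tested, 10 were higher in CCR2low and 2 lower, with a median of 6.25, and 6 were higher with limma-trend on TPM values. The 10 did not share 1 pattern. Napsa (1401, 1158 and 1297 counts in CCR2low, 306, 377 and 480 in CCR2hi) and Lrp2 (75, 116 and 95 against 10, 12 and 12) were also counted in every Bhlhe41Cre library. Pck1 had 97, 148 and 642 counts in CCR2low, highest in replicate 3 as the fat cell genes below were. Kap, whose product is an androgen-responsive protein of the proximal tubule, had 507, 487 and 413 counts in the 3 CCR2low libraries and 0 in each CCR2hi library, so it was at least 155-fold higher against a floor of 3 counts per library. Umod, which encodes uromodulin of the thick ascending limb, had 89, 105 and 70 counts against 0 (at least 29.1-fold), and Slc34a1, a phosphate transporter of the proximal tubule, had 82, 84 and 76 against 0 (at least 26.7-fold). Counts of all 3 were similar between the CCR2low replicates. Acsm2, a metabolic enzyme gene of kidney and liver that was chosen after its values were seen, had 73, 73 and 61 counts in the CCR2low libraries. All 4 genes had 0 counts in each of the 3 CCR2hi libraries and in each of the 6 Bhlhe41Cre libraries. Summed, the list took 0.0347% ± 0.00638 (SD, n = 3) of counts in CCR2low and 0.0461% ± 0.0132 (SD, n = 3) in CCR2hi, of which Aqp1 was at 199, 213 and 286 CPM in CCR2low and 319.5, 577 and 368 CPM in CCR2hi. Aqp1 and Aqp2, water channels that are not confined to the kidney, were lower in CCR2low (-0.86 and -3.04), a call that Aqp1 lost without CCR2low replicate 1 (adjusted p = 0.0541). In all, 49 genes had at most 3 counts over the CCR2hi libraries and at least 30 over the CCR2low libraries, and 21 genes showed the reverse.

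Fat cell genes were uneven between replicates. Of 8 adipocyte genes tested, 6 were higher in CCR2low and none lower, with 1 higher without CCR2hi replicate 1 and 3 without CCR2hi replicate 3. Adipoq, the hormone adiponectin, had 57, 144 and 1679 counts in the CCR2low libraries against 2, 0 and 7 in CCR2hi. Cfd, which encodes the protease adipsin, had 265, 508 and 12046 against 4, 15 and 18. Replicate 3 of CCR2low held most of the counts of both, and without it the log2 fold changes went from 7.65 to 4.98 and from 8.42 to 4.92. Adipoq was 9.13 without CCR2hi replicate 3, and lost its call without CCR2hi replicate 1 or 2 (adjusted p = 0.139 and adjusted p = 0.0517), as Cfd did without CCR2hi replicate 1 or 3 (adjusted p = 0.132 and adjusted p = 0.0734). Of 12 genes of mesothelium and epicardium, 9 were higher and 3 lower. Msln, mesothelin of the serous lining, stood at 52.6, 60.5 and 49.3 CPM in CCR2low and 3.05, 4.85 and 7.99 CPM in CCR2hi (log2 fold change 3.35 ± 0.30, adjusted p = 2.07e-05) and Upk3b at 62.2, 57.7 and 38.9 CPM in CCR2low and 4.79, 7.10 and 12.3 CPM in CCR2hi (log2 fold change 2.72 ± 0.34, adjusted p = 0.00016). Wt1, Tbx18 and Aldh1a2, genes also active in cardiac stroma, were lower (-1.39, -2.29 and -2.73), and Aldh1a2 was at -1.89 without CCR2hi replicate 1. The part of kidney, fat and mesothelial RNA in the other results was not tested.

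**Figure D4:**
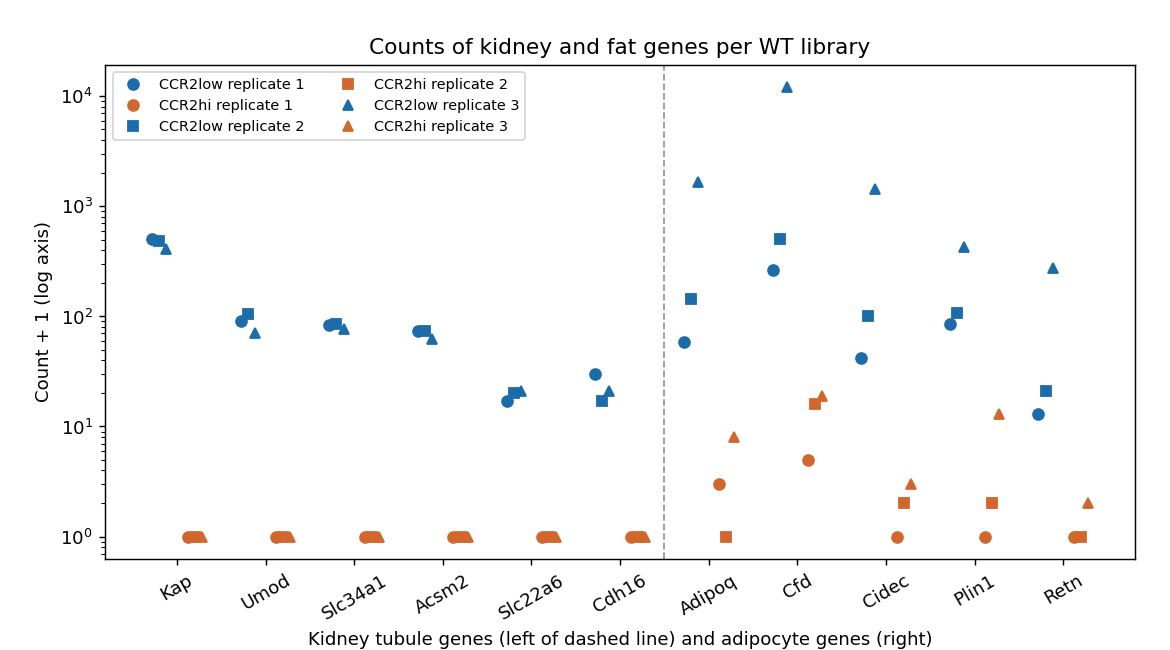
Counts plus 1 on a log axis for 6 kidney tubule genes and 5 adipocyte genes, with 1 point per WT library. Kidney genes lie at similar counts in the 3 CCR2low libraries and at 0 in CCR2hi, and adipocyte genes are highest in CCR2low replicate 3, with 12046 counts of Cfd there.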

How the data were processed

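Bulk RNA sequencing of sorted cells labelled as heart macrophages was deposited as 2 tables. Per the submitters' processing notes, the tools were CASAVA 1.8, STAR 2.4.0j and RSEM with the mm10 build. For RSEM no version is named, and the annotation is not given in the sources used here. One table deposited by the authors has RSEM expected counts for Ensembl genes, in which 0 values were not whole. The other has the authors' deposited TPM values, used only in 2 alternative tests. Groups came from the sample titles.

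The members and the gene lists were chosen with earlier results of these data known. In R 4.3.3, edgeR 4.0.16 scaled the 6 WT libraries by TMM, kept 14310 of 53801 genes with filterByExpr and tested the gates with a robust quasi-likelihood fit (4 residual degrees of freedom, coefficient of variation 19.3%). Tests were two-sided, and genes with a Benjamini-Hochberg adjusted p under 0.05 over all genes tested were called. The second scale used the summed counts of 17 macrophage identity genes as library size. A gene with no count in a gate has a bound against a floor of 3 counts per library, which covers counting error only. The test was also run on simulated counts in which few genes changed, equally often in each direction. With 59.0% of genes called here, that run does not check the scaling of these data.

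Named genes were, over all genes, the 12 per direction with the largest difference of mean CPM among called genes, and the 8 per direction with the largest fold change among those with a mean of 20 CPM or more in the higher gate and gates that do not overlap. Per gate the 8 genes at 20 CPM or more with the highest ratio of the highest to the median library were added. From each list came up to 5 called members by adjusted p in its main direction, 3 in the other and 2 members not called with the highest mean CPM, any member by its role as ligand, receptor or subunit, and Ccr2, Bhlhe41 and Bhlhe40 always. Alternatives were other scalings, filters, tools (DESeq2 1.42.0 and limma 3.58.1), a fold minimum of 1.5, all 12 libraries, a replicate block and leaving out each library. Library pairs within a gate differed beyond sampling noise (chi-square per degree of freedom 12.1 to 79.8), so none was counted as a copy. Symbols and positions came from GENCODE M21 (GRCm38), which held 99.82% of the identifiers. Promoter sequences are from RefSeq on GRCm38.p6. Some genes are not reported here.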

Additional observations from a re-analysis of the deposited data

How the results depend on the processing

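The count of 8443 called genes lay between 7092 and 8547 over the fits that left out 1 library, with 3271 to 4213 higher and 3805 to 4463 lower. A 1.5-fold minimum left 5285 genes, 2261 of them higher. On TPM values 2375 genes were higher with a pseudocount of 1 and 2353 with 0.1. The share higher among called genes was 56.9% after the GC and length correction and 44.3% on library totals. Of the macrophage and signal list genes 16 were higher on the macrophage scale, 42 with the Fc receptor list as reference, and 13 to 30 over the left-out libraries, with 30 without CCR2hi replicate 1. Same-numbered libraries of the gates did not deviate together (correlations -0.060, 0.045 and -0.044). With 3 libraries per gate this cannot show whether same-numbered libraries came from the same hearts. The main fit used no pairing, and a replicate block gave 7967 calls in place of 8443.

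Some log2 fold changes that were not called changed sign. After the GC and length correction Bhlhe41 was at 0.32, Gaa at 0.27, Atp6v0a2 at 0.0470 and Igkc at -0.28. Over the fits that left out 1 library Bhlhe41 ran from -0.27 to 0.0683, Gaa from -0.27 to 0.0287 and Igkc from -0.63 to 1.79. Scarb2 was at -0.0308 and -0.0311 on TPM with pseudocounts of 1 and 0.1. The cause was not tested. Of the genes named, 22 lost a call in at least 1 alternative, most of them against the 1.5-fold minimum, Bhlhe40, Egr1 and Jun among them. Without the count filter Ccr2, Cx3cr1, Nos2, Il6, Klf2, Malat1, Ptx3, Adipoq, Cfd and Cyp2e1 lost theirs, with limma-voom Adipoq, Cfd and Cyp2e1, on TPM Fcgrt and Fosl2, and after the GC and length correction Ccr2, Col18a1 and Mki67. Depth limits genes near 0 in a gate, and with 3 libraries per gate the separate gates of 1 gene alone would not reach an exact p under 0.05.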

Other observations

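Other metabolic genes are described here as values. Of 15 genes for glucose and monocarboxylate transport, 8 were higher and 3 lower in CCR2low, with a median of 0.60. Slc16a10, an aromatic amino acid transporter, stood at 99.4, 95.8 and 108 CPM in CCR2low and 9.49, 11.9 and 12.3 CPM in CCR2hi (log2 fold change 3.17 ± 0.15, adjusted p = 1.18e-06), and Slc2a9, a urate transporter, rose by 1.99. Of 20 targets of ATF4 and the unfolded protein response, 3 were higher and 6 lower, with Phgdh, the first enzyme of serine synthesis, at 7.55, 4.97 and 6.22 CPM in CCR2low and 39.6, 32.1 and 23.8 CPM in CCR2hi (log2 fold change -2.35 ± 0.23, adjusted p = 2.33e-05).

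Single libraries stood apart in a few genes. Cyp2e1, a cytochrome of liver and fat, was at 6.94, 11.95 and 252 CPM in the CCR2low libraries, with replicate 3 highest. The ribosomal RNA type feature CT010467.1 was at 915, 9646 and 794 CPM and the nuclear RNA Malat1 at 138, 584 and 117 CPM in the CCR2hi libraries, with replicate 2 highest. Igkc, an immunoglobulin light chain gene, was at 81.2, 4.69 and 16.8 CPM there, with replicate 1 highest, and the log2 fold change between the gates was 0.12, not called. Ptx3, a pentraxin made in inflamed tissue, was at 326, 68.3 and 81.0 CPM, also highest in replicate 1.

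Of the 49 genes near 0 in CCR2hi, 18 had 0 counts in all 6 Bhlhe41Cre libraries. Of the 21 genes near 0 in CCR2low, Duoxa1, which matures a hydrogen peroxide producing oxidase, had 34, 33 and 39 counts in the CCR2hi libraries and 2 in all of CCR2low (ratio of CCR2low to CCR2hi with a 95% counting interval of 0.00225 to 0.0696). Col9a1, a cartilage collagen, had 15, 40 and 46 and 2 (interval 0.00236 to 0.0731). Both were chosen after their values were seen.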
